A study of Mus musculus with 12 samples.

Results

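Fgf21 and the genes for the receptor proteins through which liver sees it and its relative FGF15 were followed in mouse liver. The 4 genes were Fgf21, Klb, Fgfr1 and Fgfr4, chosen by name. Each was found on exactly 1 probe set that the array annotation gives to a single gene, so 4 of the 19938 genes with such a probe set are described, and no second probe set was available for any of them.

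The RNA came from livers of male C57BL/6N mice aged 110 days, killed after a fast of 6 hours. WT mice carried the normal Lmna gene, and KI mice were homozygous for a knock-in (Lmna G609G/G609G), a model of the premature ageing disease progeria. The knock-in is carried in the germ line, so it was present in every cell type of the liver and in all other organs. From 7 weeks of age the mice ate a control diet (CD) or a methionine-restricted diet (MR), which gave 4 groups of 3 arrays: WT_CD, WT_MR, KI_CD and KI_MR. Whether every array stands for its own mouse is not stated in the labels, and p-values here reflect variation among the arrays, which may be technical.

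FGF21 is a hormone that liver secretes under nutritional stress. Lack of amino acids raises its transcription through the transcription factor ATF4, and fasting raises it through the nuclear receptor PPARA. FGF21 signals through an FGF receptor, mainly FGFR1, bound to the co-receptor beta-Klotho, the product of Klb. Hepatocytes themselves carry beta-Klotho with FGFR4, and this pair receives FGF15 from the intestine, which represses bile acid synthesis.

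In the GRCm38.p6 assembly Fgf21 lies at chr7:45613890-45615490 on the minus strand, Klb at chr5:65348411-65386957, Fgfr1 at chr8:25518759-25575718 and Fgfr4 at chr13:55152818-55168759. RefSeq start regions were at hand for 3 of the 4 genes. The 250 bases before each start are shown because the comparison below sets Fgf21 beside ATF4 and PPARA genes. They were searched on both strands for TGATGCAA, an element bound by ATF4 with a C/EBP partner. The E-box, read by basic helix-loop-helix factors, was searched as CACGTG. The motif that places the transcription machinery, the TATA box, was searched as TATAAA. The GC box, bound by Sp factors, was searched as GGGCGG. For PPARA the half-site AGGTCA was searched as a direct repeat with a gap of 1 base, and for the bile acid receptor FXR as an inverted repeat with the same gap. Matches are in capitals, and each sequence reads 5′ to 3′ toward the gene.
Fgf21, chr7:45615491-45615740, minus strand: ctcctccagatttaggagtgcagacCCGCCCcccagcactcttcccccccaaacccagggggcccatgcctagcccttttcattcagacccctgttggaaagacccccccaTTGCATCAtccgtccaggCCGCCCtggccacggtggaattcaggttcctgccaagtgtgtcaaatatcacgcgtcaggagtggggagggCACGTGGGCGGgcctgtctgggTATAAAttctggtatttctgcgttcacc
Klb, chr5:65348161-65348410, plus strand: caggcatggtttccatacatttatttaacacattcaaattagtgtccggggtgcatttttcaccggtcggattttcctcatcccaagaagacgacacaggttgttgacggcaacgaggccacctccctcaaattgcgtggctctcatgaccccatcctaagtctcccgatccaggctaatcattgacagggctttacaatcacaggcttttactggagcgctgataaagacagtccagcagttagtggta
Fgfr4, chr13:55152568-55152817, plus strand: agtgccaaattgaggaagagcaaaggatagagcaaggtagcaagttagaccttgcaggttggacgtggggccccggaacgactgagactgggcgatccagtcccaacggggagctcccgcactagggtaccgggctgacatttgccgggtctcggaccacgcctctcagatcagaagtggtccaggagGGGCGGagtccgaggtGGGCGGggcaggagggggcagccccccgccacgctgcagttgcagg

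The Fgf21 window held the ATF4 element on the opposite strand, 139 to 132 bases before the start. Of 32851 such windows in the RefSeq table, 0.791% held that element. The Fgf21 window also held an E-box (6.02% of windows), which shares its last base with a GC box (32.7%), and a TATA box from 28 to 23 bases before the start (12.4%). In the Fgfr4 window only GC boxes were found, and none of the 6 motifs was found in the Klb window. The PPARA repeat (0.0335% of windows) and the FXR repeat (0.00609%) were found in none of the 3 windows. A match describes the letters only, and the arrays do not measure binding.

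All values below are deposited array intensities, with array medians of 82 to 90. Changes are log2 differences ± SE from 1 limma fit over all 12 arrays and 19938 genes, and adjusted p-values are Benjamini-Hochberg values over all genes with a threshold of 0.05. The diet was compared within each genotype and as an average over both, the genotype within each diet and as an average over both, and the interaction asked whether the diet change differed between genotypes. Comparisons that share a group are not independent. KI_CD replicate 1 had the lowest mean correlation with its own group, 0.986 across genes, and the remaining 11 arrays had 0.989 to 0.994. It was not the only array that stood apart. A fit that weights the arrays gave WT_MR replicate 3 a lower weight (0.354) than KI_CD replicate 1 (0.455). Values without KI_CD replicate 1 are given beside the described changes whose call it decides. Lmna was higher in knock-in liver (average 0.47, adjusted p = 0.0319), but this probe set cannot tell the mutant message from the normal one and checks nothing about the labels. The 8 measured hepatocyte markers summed to 83144 to 93461 units on the 6 wild-type arrays and 93066 to 98250 on the 6 knock-in arrays, and 0 of them lay below the lower quartile of gene levels in any group.

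**Figure D1:**
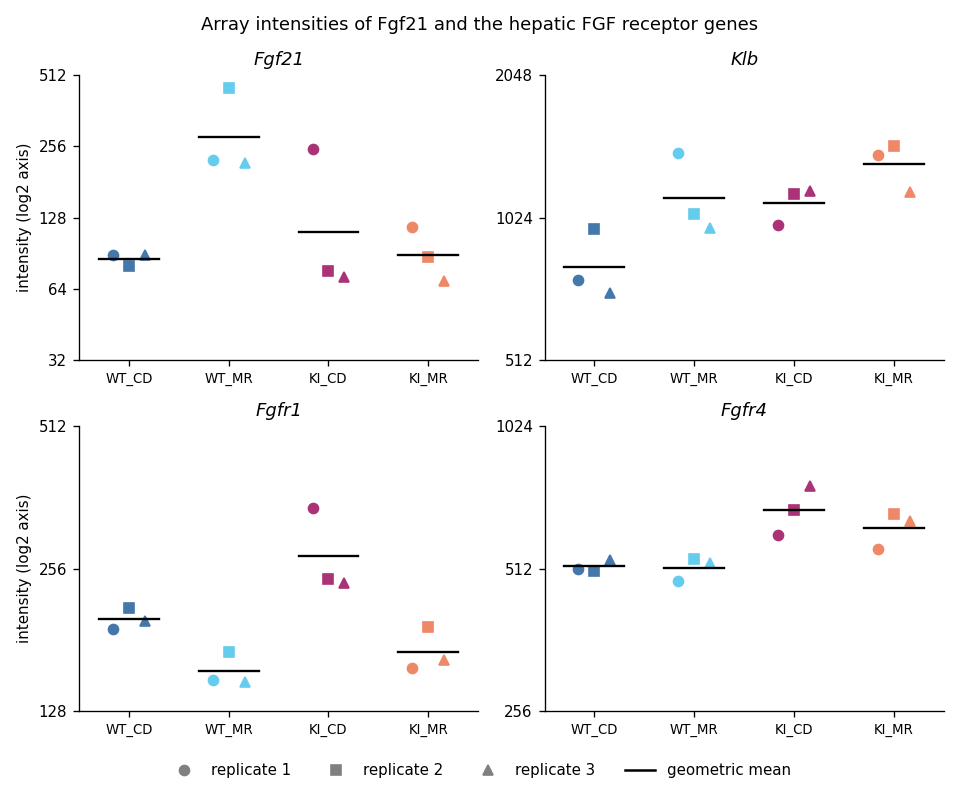
Array intensities (log2 axis) of Fgf21, Klb, Fgfr1 and Fgfr4 in the 4 groups. Each symbol is 1 array and each bar the geometric mean of 3 arrays. Fgf21 is high in all WT_MR arrays (217 to 449) and in KI_CD replicate 1 (250), and 117 or less in the other 8.

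Fgf21, the hormone gene, was high in wild-type mice on the restricted diet and stayed low in knock-in mice on the same diet. In WT_CD its intensities were 89, 80 and 89 units (86.0 ± 5.20, SD, n = 3). In WT_MR they were 225, 449 and 217 (297 ± 132, n = 3), all above every WT_CD array. In KI_CD they were 250, 76 and 72 (133 ± 102, n = 3), and in KI_MR 117, 87 and 69 (91.0 ± 24.2, n = 3). Thus 2 of the 3 KI_MR arrays lay below the highest WT_CD array, and 1 KI_CD array lay in the range of WT_MR.

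In wild-type liver the diet change of Fgf21 was 1.70 ± 0.43, or 3.26-fold (unadjusted p = 0.00222, limma adjusted p = 0.173). In knock-in liver it was -0.32 ± 0.43 (adjusted p = 0.997). On the restricted diet Fgf21 was 3.15-fold lower in knock-in than in wild-type liver (-1.65 ± 0.43, adjusted p = 0.115), with no overlap between the groups. On the control diet the genotypes differed by 0.37 ± 0.43. None of these passed over all genes. The interaction was -2.02 ± 0.61, with a 95% interval from -3.37 to -0.68 (unadjusted p = 0.00674, limma adjusted p = 1.0). For the interaction limma called 0 of 19938 genes, and 824 (4.13%) had an unadjusted p under 0.05.

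Leaving out the KI_CD array with the high level narrowed the spread behind these tests. With 11 arrays the SE of the wild-type diet change went from 0.43 to 0.26, and that change passed (1.70, limma adjusted p = 0.0119). The genotype difference on the restricted diet then passed too (-1.65, adjusted p = 0.0206), as did the average diet effect (0.98, adjusted p = 0.0254) and the average genotype effect (-0.94, adjusted p = 0.0318). With all arrays these averages were 0.69 ± 0.31 (adjusted p = 0.435) and -0.64 ± 0.31 (adjusted p = 0.242). Of the 12 fits that left out 1 array, the fit without KI_CD replicate 1 was the only 1 in which Fgf21 passed for any of these 4 changes. The knock-in diet change turned from -0.32 to 0.27 and the control-diet genotype difference from 0.37 to -0.22, neither past the threshold. The interaction was -1.44 ± 0.39 without that array (unadjusted p = 0.00373, adjusted p = 1.0), so its sign held and its call did not change.

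**Figure D2:**
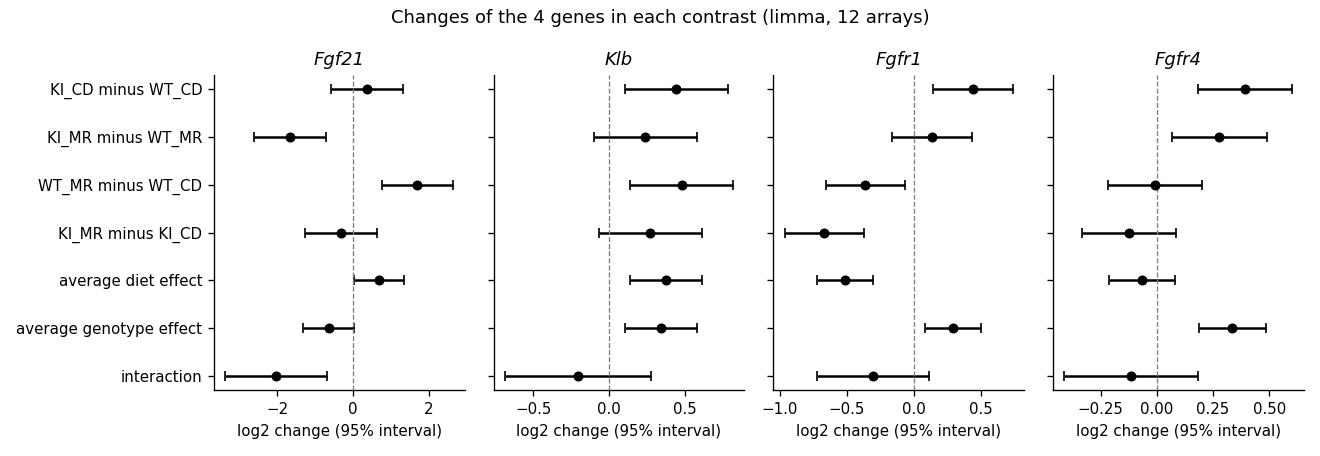
Log2 changes of Fgf21, Klb, Fgfr1 and Fgfr4 in 7 contrasts, with 95% intervals from limma over 12 arrays; each panel has its own horizontal scale. The Fgf21 intervals for WT_MR minus WT_CD (0.76 to 2.65) and KI_MR minus WT_MR (-2.60 to -0.71) lie on opposite sides of 0.

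KI_CD replicate 1 was also high in some stress genes of the ATF4 pathway, though not in all. Trib3, which encodes a pseudokinase induced by ATF4, was at 775 units there against 160 and 171 in the other KI_CD arrays. Ddit3, the gene of the stress factor CHOP, was at 551 against 121 and 118, and Asns, which encodes asparagine synthetase, at 2205 against 381 and 554. Cth, another gene of that pathway, was not raised there: KI_CD minus WT_CD was 0.78 with that array and 0.89 without it. Trib3 and Ddit3, and Retn, Cidec and Lrat below, were picked after their values were seen. That array also had the highest summed adipocyte markers, 906 units over 5 genes against 331 to 572 in the other 11. The fat-cell genes Retn (349) and Cidec (353) were high in it, while Adipoq (46) and Lep (33) lay near the low end of the scale. Its acinar pancreas sum (583 over 6 genes) lay within the 392 to 634 of the other arrays. FGF21 is made by pancreas and fat as well, and the part of these markers in the Fgf21 value of that array was not tested.

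Of 24 measured amino acid stress genes under ATF4 (the ATF4 list), 11 rose in the average diet effect and 0 fell, with a list median of 0.40, beside 1.21% of all genes called and a median of -0.01 over all genes. Within each genotype 3 of the 24 rose, Aldh1l2, Slc7a11 and Vldlr, beside 0.326% of all genes called in wild-type and 0.176% in knock-in liver, and 8 of the 24 lay below 0 in knock-in liver. Leaving out KI_CD replicate 1, 9 rose in each genotype and 3 lay below 0 in each. Aldh1l2, a mitochondrial folate enzyme gene, rose by 1.54 ± 0.17 in wild-type and 1.59 ± 0.17 in knock-in liver (limma adjusted p = 0.00326 and 0.00471). Slc7a11, the cystine transporter gene, rose by 2.81 and 2.46, or at least 5.07-fold and 4.09-fold with the dim control-diet arrays raised to the lower quartile of gene levels. Vldlr, a lipoprotein receptor gene, rose by 1.90 and 1.68. The knock-in calls of Slc7a11 and Vldlr were lost in 8 and 11 of 12 fits that left out 1 array, and that of Aldh1l2 in 0. In wild-type liver they were lost in 2, 5 and 0 such fits for Slc7a11, Vldlr and Aldh1l2.

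Asns was high on the restricted diet in both genotypes. Its intensities were 548, 542 and 790 in WT_CD and 4396, 3174 and 3546 in WT_MR. They were 2205, 381 and 554 in KI_CD and 4007, 4057 and 4050 in KI_MR. Asns thus reached the same range on the restricted diet in both genotypes, where Fgf21 was at 217 to 449 in WT_MR and 69 to 117 in KI_MR. Within each genotype its change did not pass (2.57, adjusted p = 0.0566, and 2.38, adjusted p = 0.106), and it passed in both without KI_CD replicate 1 (2.57, adjusted p = 9.28e-05, and 3.14, adjusted p = 7.79e-05). The average diet effect of Asns was 2.48 (adjusted p = 0.00657) and its interaction -0.19. Slc3a2, an amino acid transporter subunit gene, rose by 0.97 on average and had an interaction of -0.02. Over the 24 genes the interactions ran from -0.96 to 0.35 (median -0.20), and that of Fgf21 was -2.02; with KI_CD replicate 1 left out they ran from -0.78 to 0.77, and Fgf21 stood at -1.44. The Atf4 message itself did not pass, with 0.16 as the average diet effect (adjusted p = 0.748). Atf5, a related stress factor gene, rose by 0.64 (adjusted p = 0.0262, lost in 8 of 12 fits without 1 array).

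**Figure D3:**
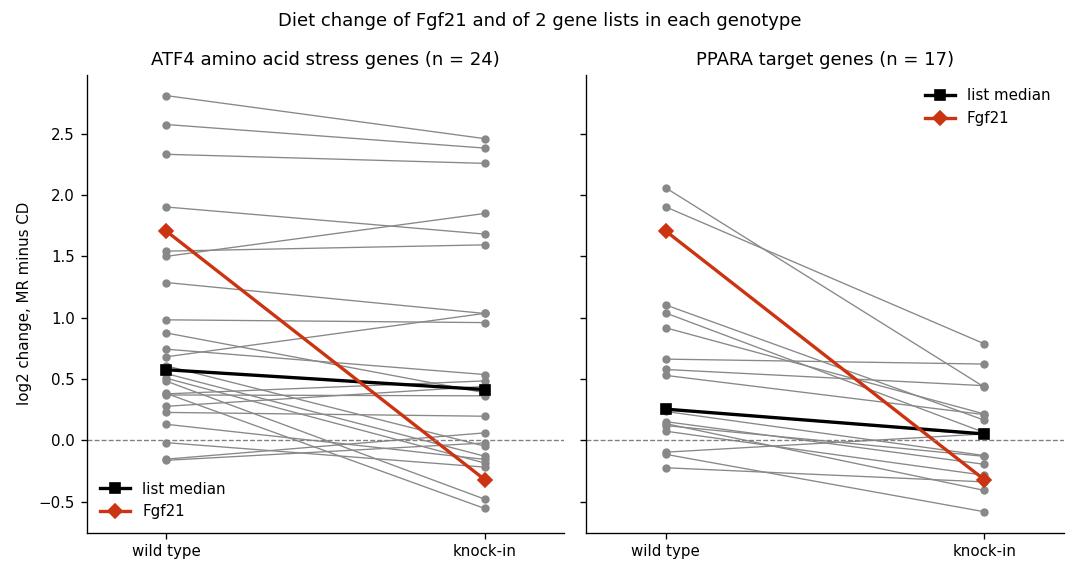
Diet change (log2, MR minus CD) in wild-type and knock-in liver for each gene (grey lines) of the ATF4 list (24 genes) and of the PPARA list (17 genes), with the list median in black and Fgf21 in red. Fgf21 goes from 1.70 to -0.32 while the median of the ATF4 list goes from 0.57 to 0.41.

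Ppara and a few of its target genes were lower in knock-in liver. Ppara, the nuclear receptor gene, was at 3156, 2841 and 2797 in WT_CD, 2730, 2624 and 2045 in WT_MR, 2294, 2246 and 2365 in KI_CD and 1994, 1929 and 1693 in KI_MR. Its average genotype effect was -0.37 ± 0.08 (limma adjusted p = 0.0335), a call lost in 9 of 12 fits without 1 array. Of 17 measured PPARA target genes, 2 fell with the genotype, 1 rose and 14 lay below 0, with a median of -0.37 beside -0.04 over all genes, of which 2.81% were called. Slc25a20, the carnitine carrier gene of mitochondria, fell by 0.54 and Fabp1, the liver fatty acid binding protein gene, by 0.38 (adjusted p = 0.0342 and 0.0411, lost in 7 and 9 of 12 such fits). Cyp4a14, a fatty acid hydroxylase gene, rose by 0.82 with the genotype (adjusted p = 0.0393), a call lost in 10 of 12 such fits. With 11 arrays, leaving out KI_CD replicate 1, 0 PPARA targets rose and 4 fell with the genotype.

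In the diet comparison the PPARA list gave 1 call, beside 1.21% of all genes. Cyp4a14 rose by 2.06 in wild-type liver (adjusted p = 0.00686) and stood at 0.43 in knock-in liver. Its control-diet level was already higher in the knock-in, 6966, 6309 and 4939 units against 1654, 1404 and 3126 in WT_CD. Pdk4, a kinase gene that limits glucose oxidation, was at 1.90 in wild-type and 0.79 in knock-in liver, neither past the threshold, and its average (1.34, adjusted p = 0.0983) passed without KI_CD replicate 1 (1.58, adjusted p = 0.0197). Cpt1a, another gene of the list, lay below 0, at -0.35 on average and -0.58 in knock-in liver (limma adjusted p = 0.122 and 0.158). Of the 17 genes, 16 had an interaction below 0 (median -0.36, against -0.01 over all genes). By limma 0 passed, with 2 at an unadjusted p under 0.05 (4.13% of all genes). When KI_CD replicate 1 was left out, 14 were below 0, with a median of -0.18, and 4 target genes rose in the average diet effect.

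Of 25 measured regulators of Fgf21 transcription, which include Atf5 and Ppara, 1 rose and 1 fell with the diet (1.21% of all genes called), and 2 rose and 1 fell with the genotype (2.81%). The others were not called. Bhlhe41, a clock repressor gene, fell from 90 to 100 units in WT_CD to 35 to 42 in WT_MR, at least 1.99-fold, and from 62 to 105 in KI_CD to 33 to 45 in KI_MR, at least 1.78-fold (average -1.20, limma adjusted p = 9.59e-04). The knock-in call was lost in 10 of 12 fits without 1 array, the wild-type call in 1 and the average in 0. Nr3c1, the glucocorticoid receptor gene, rose with the genotype by 0.25, and Eif2ak4, which encodes the amino acid sensor kinase GCN2, by 0.28 (adjusted p = 0.0338 and 0.0419). Both calls were near the threshold and were lost in 8 and 10 of 12 fits without 1 array.

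The genes whose levels ran most like Fgf21 over the 12 arrays were Plpp2 (Pearson r = 0.93), Cd36 (0.92), Nln (0.91) and Akr1a1 (0.91), out of 14201 genes compared. These are the highest of many values, from arrays that share 4 group means, and are given as a description. Cd36, the fatty acid uptake receptor gene, was at 353, 397 and 364 in WT_CD and 1619, 1754 and 1569 in WT_MR. In KI_CD it was at 1581, 288 and 351, and in KI_MR at 462, 660 and 492. As for Fgf21, all WT_MR arrays and KI_CD replicate 1 were high. Without that array the r of Cd36 with Fgf21 was 0.91 over 11 arrays, and with group means removed it was 0.80 over 12. The first value keeps the group means and the second keeps KI_CD replicate 1. Whether the genes run together within groups without that array was not tested.

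**Figure D4:**
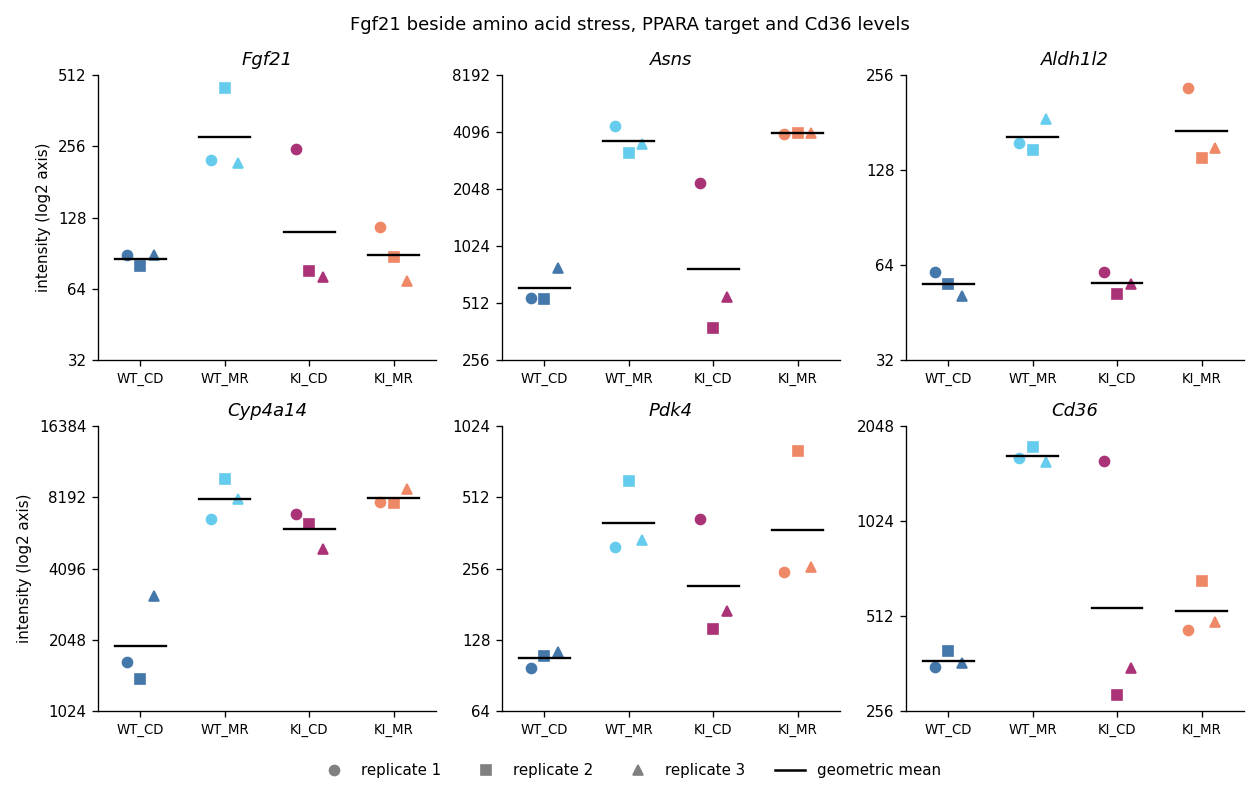
Array intensities (log2 axes) of Fgf21, the amino acid stress genes Asns and Aldh1l2, the PPARA targets Cyp4a14 and Pdk4, and Cd36, by group. Symbols are arrays and bars geometric means of 3. Asns and Aldh1l2 are high in both restricted groups, whereas Fgf21 and Cd36 are high in WT_MR and in KI_CD replicate 1.

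Klb, the co-receptor gene, had its lowest level in control-diet wild-type liver and its highest in restricted knock-in liver. In WT_CD its intensities were 758, 971 and 711 (813 ± 139, SD, n = 3), and in WT_MR 1399, 1042 and 975 (1139 ± 228, n = 3). In KI_CD they were 990, 1151 and 1163 (1101 ± 96.6, n = 3), and in KI_MR 1388, 1453 and 1162 (1334 ± 153, n = 3). Neither WT_MR nor KI_CD overlapped WT_CD, although their lowest arrays (975 and 990) lay just above its highest (971). KI_CD and WT_MR overlapped each other, as did WT_MR and KI_MR.

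The diet change of Klb was 0.48 ± 0.155 in wild-type and 0.27 ± 0.155 in knock-in liver (limma adjusted p = 0.33 and 0.779), and the average was 0.38 ± 0.11, or 1.30-fold (unadjusted p = 0.00539, adjusted p = 0.156). The genotype change was 0.45 ± 0.155 on the control and 0.24 ± 0.155 on the restricted diet, with an average of 0.34 ± 0.11 (unadjusted p = 0.00934, adjusted p = 0.117). None passed over all genes. The interaction was -0.21, with a 95% interval from -0.69 to 0.28. Klb ran most like Arfgef2 (r = 0.94), Rdh16f2 (0.90), Slco1a4 (0.89) and Arrdc4 (0.89) over the 12 arrays. Slco1a4, an organic anion transporter gene, was the most changed of them, with 472, 648 and 260 units in WT_CD and 2851, 3038 and 3763 in KI_MR.

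Fgfr1, the main receptor for FGF21 in fat and brain, fell with methionine restriction in both genotypes. In WT_CD its intensities were 191, 211 and 199 (200.3 ± 10.1, SD, n = 3), and in WT_MR 149, 171 and 148 (156 ± 13.0, n = 3). In KI_CD they were 344, 244 and 239 (276 ± 59.2, n = 3), and in KI_MR 158, 193 and 164 (172 ± 18.7, n = 3). Within each genotype every restricted array lay below every control array, and KI_CD lay above all other groups.

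The average diet effect of Fgfr1 was -0.52 ± 0.10, a level 1.43-fold lower (limma adjusted p = 0.0266, lower in 6 of 6 restricted arrays against their genotype's controls). It was the 1 member of the 4 called for the average diet effect, for which 1.21% of all genes were called and 1.14% were lower without overlap in both genotypes. The change was -0.36 ± 0.13 in wild-type and -0.67 ± 0.13 in knock-in liver, neither past the threshold alone (adjusted p = 0.45 and 0.103). Without KI_CD replicate 1, which had the highest Fgfr1 level, the average was -0.43 ± 0.07 (adjusted p = 0.00929). The call was lost without any 1 of KI_MR replicates 1 and 3, WT_CD replicates 1, 2 and 3 and WT_MR replicates 1 and 3, with adjusted p from 0.0569 to 0.0828 and values from -0.53 to -0.49. With the genotype Fgfr1 stood at 0.44 ± 0.13 on the control and 0.14 ± 0.13 on the restricted diet, not past the threshold. Without KI_CD replicate 1 the control-diet value was 0.27.

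In liver Fgfr1 is also made by cells other than hepatocytes, and in bulk tissue fewer cells of a type and less RNA per cell cannot be told apart. Of 9 stellate cell and fibroblast markers, 0 passed with the diet by limma, 0 had an unadjusted p under 0.05 and 8 lay below 0, with a median of -0.13. Their summed level was 6358 to 6975 in WT_CD, 5575 to 6166 in WT_MR, 6387 to 8918 in KI_CD and 6970 to 7992 in KI_MR, with the 8918 in KI_CD replicate 1. Between the diets these sums did not overlap in wild-type liver and overlapped in knock-in liver, where the Fgfr1 groups did not. Leaving out KI_CD replicate 1, the median of the markers was -0.06 for the diet. The retinol esterification gene Lrat, which defines stellate cells, was at 1101, 951 and 893 in WT_CD and 853, 660 and 923 in WT_MR. The share of these cells in the Fgfr1 change was not tested. Fgfr1 ran most like Ctc1 (r = 0.93), Pik3r4 (0.93), Ikbkb (0.93) and Myh10 (0.92), of which Pik3r4 (-0.26) and Ikbkb (-0.23) fell with the diet.

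Fgfr4, the hepatocyte receptor for FGF15, was higher in knock-in than in wild-type liver on both diets. In WT_CD its intensities were 511, 507 and 535 (518 ± 15.1, SD, n = 3), and in WT_MR 482, 537 and 526 (515 ± 29.1, n = 3). In KI_CD they were 602, 681 and 765 (683 ± 81.5, n = 3), and in KI_MR 564, 666 and 646 (625 ± 54.0, n = 3). All 6 knock-in arrays (564 to 765) lay above all 6 wild-type arrays (482 to 537), and within a genotype the diets overlapped.

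The average genotype effect of Fgfr4 was 0.34 ± 0.07, or 1.26-fold (limma adjusted p = 0.0303, higher in 6 of 6 knock-in arrays). It was the 1 member of the 4 called for the average genotype effect, for which 2.81% of all genes were called and 2.53% were higher without overlap on both diets. The change was 0.39 ± 0.10 on the control and 0.28 ± 0.10 under restriction (adjusted p of 0.18 for the first, 0.219 for the second). Leaving out KI_CD replicate 1 gave an average of 0.38 ± 0.06 (adjusted p = 0.0143). The call was lost without any 1 of KI_CD replicates 2 and 3, KI_MR replicates 2 and 3, WT_CD replicates 1, 2 and 3 and WT_MR replicates 1 and 2, with adjusted p from 0.0533 to 0.0817 and values from 0.29 to 0.35. The hepatocyte markers also lay above 0 with the genotype, 8 of 8 with a median of 0.10, of which 0 passed and 3 had an unadjusted p under 0.05 (22% of all genes), and their part in the Fgfr4 and Klb values was not tested. The diet change was -0.07, with a 95% interval from -0.21 to 0.08. Fgfr4 ran most like Dop1a (r = 0.93), Retreg2 (0.92), Gpsm2 (0.92) and Asb7 (0.92).

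Within the single comparisons limma called 0 of the 4 genes. Over all genes 0.326% were called for the diet in wild-type liver, 0.176% for the diet in knock-in liver, 0.0802% for the genotype on the control diet and 0.471% for the genotype on the restricted diet. An unadjusted p under 0.05 was reached by 3 of the 4 genes for the diet in wild-type liver (8.19% of all genes) and by Fgfr1 for the diet in knock-in liver (7.78%). It was reached by the 3 receptor genes for the genotype on the control diet (11.2%), and by Fgf21 and Fgfr4 on the restricted diet (14.1%). On the control diet these 3 receptor genes were also higher in the knock-in without overlap, as were 8.57% of all genes. On the restricted diet Fgfr4 was higher without overlap (7.5% of all genes) and Fgf21 lower (8.82%). With the diet in wild-type liver Fgf21 and Klb were higher without overlap (6.35%) and Fgfr1 lower (5.17%), and in knock-in liver Fgfr1 was lower (6.99%). For the average diet effect 3 of the 4 genes had an unadjusted p under 0.05 (10.9% of all genes) and for the average genotype effect the 3 receptor genes did (22%). Klb and Fgfr1, both partners in the FGF21 receptor complex, thus differed in direction under the diet (average 0.38 and -0.52) while both lay above 0 with the genotype.

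None of the other receptors or ligands passed the threshold. Of Fgfr2, Fgfr3, Fgfrl1 and Kl, 0 passed by limma for the diet or the genotype, and 2 had an unadjusted p under 0.05 for the diet (10.9% of all genes). Fgfr3, another FGF receptor gene, was at 286 to 327 units in WT_CD, 246 to 259 in WT_MR, 255 to 323 in KI_CD and 215 to 249 in KI_MR (average diet effect -0.30, adjusted p = 0.0725). Of 17 other FGF ligand genes 0 passed for the diet or the genotype, with 1 and 2 at an unadjusted p under 0.05 (10.9% and 22% of all genes). Fgf1, a ligand gene that liver expresses, was at -0.48 with the diet (adjusted p = 0.381). Fgf15, the ligand gene normally expressed in intestine, was at 95 to 148 units on all arrays. Its average genotype effect was -0.21 (unadjusted p = 0.0213, limma adjusted p = 0.161).

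Among the genes that carry or limit the receptor signal, 2 feedback inhibitors were higher in knock-in liver. Of 24 measured genes 2 rose and 0 fell with the genotype (2.81% of all genes called), and 0 passed with the diet, where 4 had an unadjusted p under 0.05 (10.9% of all genes). With the genotype, Dusp4, Etv5 and Spry4 also had an unadjusted p under 0.05, as did 22% of all genes. Spred1, an inhibitor of the Ras and ERK cascade, was at 224, 256 and 276 in WT_CD, 206, 204 and 236 in WT_MR, 307, 304 and 296 in KI_CD and 322, 287 and 309 in KI_MR. Its average genotype effect was 0.39 (limma adjusted p = 0.0149), with all knock-in arrays above all wild-type arrays, and the call held in each of 12 fits without 1 array. Spred2, its relative, was at 0.34 (adjusted p = 0.0411; a second probe set also gave 0.34), a call lost in 10 of 12 such fits. Dusp6 and Spry4, feedback genes that ERK signalling induces, did not pass with the genotype, at 0.11 and 0.46 (limma adjusted p = 0.744 and 0.186). With KI_CD replicate 1 left out, Spry4 passed for the average genotype (0.64, adjusted p = 0.0167), for KI_MR minus WT_MR (1.10, adjusted p = 0.011, against 0.0924 with all arrays) and for WT_MR minus WT_CD (-0.82, adjusted p = 0.0264, against 0.308). Spry4 was lowest in WT_MR (200, 225 and 209) and in KI_CD replicate 1 (199), the same arrays that were highest in Fgf21, and at 323 to 515 in the other 8. Genes of this list with an unadjusted limma p under 0.05 for the interaction (4.13% of all genes) went both ways. Spry4 was at 1.28, and Egr1 (-2.01), Ier2 (-0.42) and Fos (-0.35) lay below 0, with none past the threshold.

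Among bile acid genes of the FGF15 and FGFR4 pathway, 1 enzyme gene was called lower in knock-in liver on average and 1 on the restricted diet. Of 9 genes, which include nuclear receptor and transporter genes beside the enzymes, 1 fell with the genotype on average (2.81% of all genes called) and 1 on the restricted diet (0.471%). Cyp8b1, which encodes the enzyme that sets the share of cholic acid, was at 1715, 1646 and 606 in WT_CD, 767, 1338 and 1097 in WT_MR, 293, 457 and 357 in KI_CD and 80, 584 and 183 in KI_MR (average -2.03, limma adjusted p = 0.0342, lost in 7 of 12 fits without 1 array). Cyp7a1, the rate-limiting enzyme gene, was lower in KI_MR (1195, 653 and 1745) than in WT_MR (5963, 4297 and 3285), by -1.98 (adjusted p = 0.0314, lost in 6 of 12 such fits). On the control diet its genotype change was 0.27 (limma adjusted p = 0.74). Cyp7b1, another gene of the list, was at -1.42 with the genotype on average, lower without overlap on both diets, and did not pass (limma adjusted p = 0.0704). Without KI_CD replicate 1 it passed (-1.08, adjusted p = 0.0491). Nr0b2, the gene of the repressor SHP, did not pass (0.13 with the genotype, adjusted p = 0.83).

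**Figure D5:**
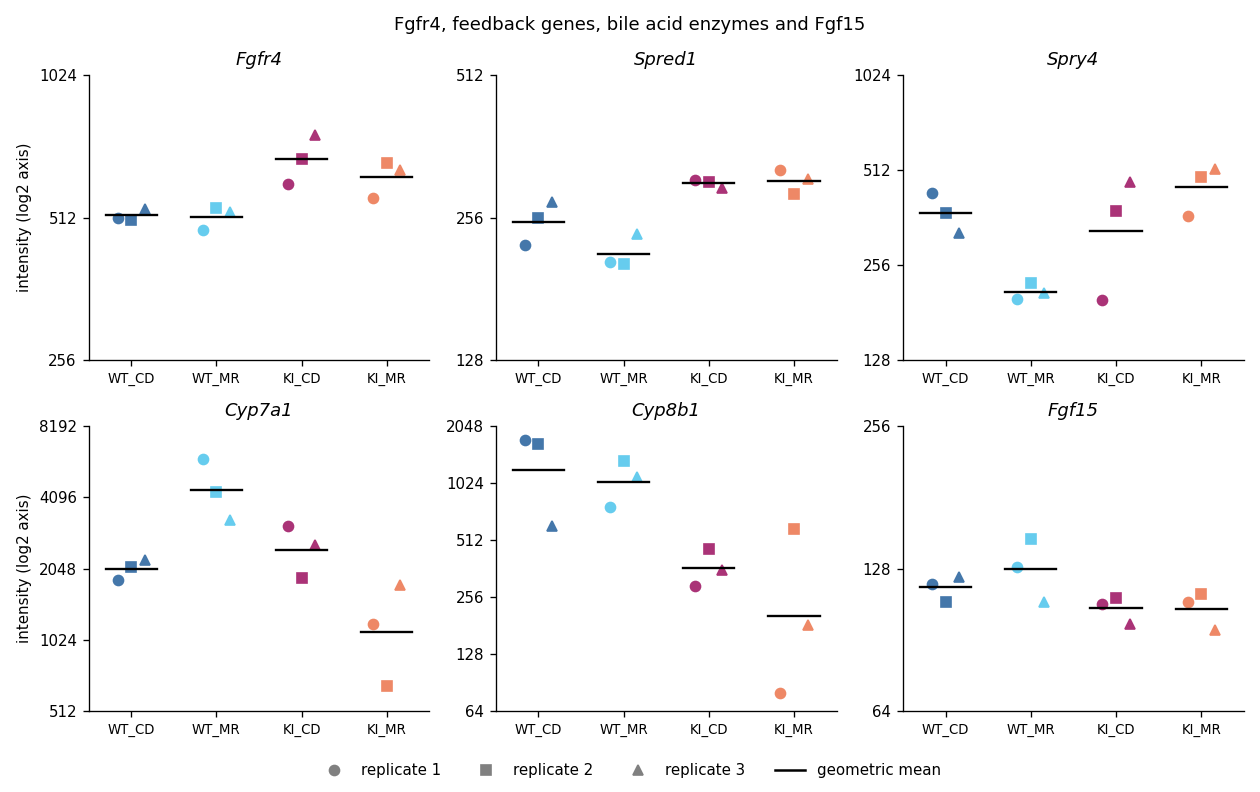
Array intensities (log2 axes) of Fgfr4, the feedback genes Spred1 and Spry4, the bile acid enzyme genes Cyp7a1 and Cyp8b1, and Fgf15, by group. Symbols are arrays and bars geometric means of 3. All 6 knock-in arrays lie above all 6 wild-type arrays for Fgfr4 and Spred1 and below them for Cyp8b1, and Fgf15 lies between 95 and 148 units.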

How the data were processed

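Biotin-labelled liver RNA of 12 samples was read on Affymetrix mouse gene arrays, per the labels' protocols. The deposited table holds an intensity per probe set on a linear scale, all whole numbers (10 to 20042). For background correction and scaling by the authors, the method is not given in these sources. Values were converted to log2 and not rescaled. Of 35512 probe sets 21789 carried 1 gene symbol, and the brightest per gene gave 19938 genes. One model of the 4 group means was fitted with lmFit and eBayes (limma 3.58.1, R 4.3.3; 8 residual degrees of freedom). Tests were two-sided. The fit was tested on simulated data. Members and lists were chosen with earlier results of these data known. Lists are described by counts and medians, with no set test. Genes were named from among members, list genes past the threshold (up to 4 a list) or with the 3 smallest p for diet or genotype, fixed names, and the 4 genes most correlated with each member. Some list genes that met these rules are not described. A few others, such as Trib3, Ddit3, Retn, Cidec, Lrat, Egr1, Fos, Ier2 and Dusp4, were named outside them. The data hold no detection calls, and the number of arrays limits precision. Where a group mean lay below the lower quartile over genes, averaged over its arrays, the fold is given as a bound. Alternatives were quantile normalization, median centring, a filter on the dimmest 25% of genes, the mean of a gene's probe sets, a trended robust prior, array weights, the replicate number as a block, the 6 compared arrays alone and each array left out. Python 3.11.15, pandas 2.3.3 and matplotlib 3.10.9 were used.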

Additional observations from a re-analysis of the deposited data

Results flagged for a closer look

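Cyp7a1 was the 1 named gene whose groups moved in opposite directions under the same diet without overlap in either genotype. Every restricted array lay above every control array in wild-type liver (1.11 ± 0.32) and below in knock-in liver (-1.15 ± 0.32). The difference between these changes was -2.26 ± 0.46 and did not pass over all genes (limma adjusted p = 0.652). Without KI_CD replicate 1 it was -2.09.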

How the results depend on the processing

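Of 28 changes of the 4 genes, the trended prior, quantile normalization, the dim filter and the mean of probe sets changed no sign and no call (Fgfr4 average genotype with quantile normalization 0.29). Median centring turned only the Fgfr4 diet change in wild-type liver, from -0.01 to 0.013. Array weights, which gave WT_MR replicate 1 a weight of 3.88, added calls for Fgf21 (WT_MR minus WT_CD 1.51; KI_MR minus WT_MR -1.38), Klb (WT_MR minus WT_CD 0.66; average diet 0.45), Fgfr1 (WT_MR minus WT_CD -0.42; KI_MR minus KI_CD -0.59; average genotype 0.24) and Fgfr4 (KI_CD minus WT_CD 0.45; KI_MR minus WT_MR 0.32), and turned Fgf21 in KI_MR minus KI_CD to 0.080. The 6 compared arrays alone called Fgf21 in WT_MR minus WT_CD (1.70). The labels share replicate numbers, and 9 of 18 same-numbered pairs had deviations correlated over 0.1. Correlations ran from -0.059 to 0.244 in these 18 pairs and from -0.247 to 0.197 in the 36 pairs with different numbers. For 7 arrays the best match was an array of their own number. A cut at 0.1 cannot decide whether the numbers pair the samples, and a shared batch was not tested. With the replicate block no call of the 4 genes changed (Fgfr1 average diet -0.52, adjusted p = 0.0398; Fgfr4 average genotype 0.34, adjusted p = 0.017), and 960 against 561 genes passed for the average genotype and 177 against 94 for KI_MR minus WT_MR.

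With single arrays left out, Fgf21 ran from -0.22 to 0.68 in KI_CD minus WT_CD, -1.85 to -1.31 in KI_MR minus WT_MR, 1.36 to 1.89 in WT_MR minus WT_CD, -0.63 to 0.27 in KI_MR minus KI_CD, 0.52 to 0.98 for the average diet and -0.94 to -0.47 for the average genotype. Fgfr1 ran from -0.56 to -0.43 for the average diet, and Fgfr4 from 0.29 to 0.38 for the average genotype and from -0.0396 to 0.038 in WT_MR minus WT_CD. Counts over all genes then ran from 2 to 32 (16), 3 to 226 (94), 17 to 199 (65), 7 to 94 (35), 112 to 470 (241) and 138 to 1945 (561) for KI_CD minus WT_CD, KI_MR minus WT_MR, WT_MR minus WT_CD, KI_MR minus KI_CD, average diet and average genotype, with all 12 arrays in parentheses. The highest count came without WT_MR replicate 3 for the average genotype (1945) and without KI_CD replicate 1 for the others. Other settings that moved these counts by over 1.5 times, in that order, were array weights (138, 1514, 564, 126, 875 and 3097) and, for the first 4, the compared arrays alone (0, 15, 131 and 0). Median centring gave 58 and 18 for KI_MR minus WT_MR and KI_MR minus KI_CD, and for KI_CD minus WT_CD the dim filter gave 31 and the trended prior 26. List counts were checked the same way, an alternative added after the data were seen. The 11 ATF4 genes ran from 8 to 13, and the 2 PPARA genes that fell with the genotype from 0 to 6.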
